A study of Saccharomyces cerevisiae with 8 samples.

Results

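Wild-type budding yeast given cycloheximide was compared with wild-type yeast given the solvent DMSO, across every class of RNA in the deposited table. The strain was BY4741 (MATa, his3Δ1 leu2Δ0 met15Δ0 ura3Δ0). The treated group (WT CHX) had received 100 µg/ml cycloheximide (CHX) for 15 min in rich medium at 30 °C and an OD600 of 0.5, and the control group (WT DMSO) an equal volume of DMSO for the same time. Each group held 2 biological replicates, so 4 of the 8 libraries of the series were compared. The other 4 came from upf1 deletion cells under the same treatments. They entered the estimate of the spread, the filter on low values, the common median used for scaling and the split of ORFs by level. They also entered a closing test of whether the changes differ between WT and upf1. All groups share the 4 auxotrophic markers of the strain and a digestion of 1.5 µg total RNA with 1 unit of Terminator exonuclease for 1 h before stranded library preparation. They also share 3 µl of ERCC spike-in RNA, and whether the deposited scale rests on it is not stated.

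Cycloheximide binds the ribosome and stops elongation, so ribosomes stay on the mRNA and the cell makes no further protein while transcription goes on. Most yeast mRNAs are degraded by deadenylation, removal of the m7G cap and digestion of the exposed 5′ monophosphate end by the exonuclease Xrn1. Terminator digests RNA that carries such an end and leaves capped RNA, which the libraries are therefore enriched for. Undigested libraries were not analysed here. A larger amount of an RNA, a larger capped share of it and a less complete digestion cannot be told apart, and neither can fewer cells and less RNA per cell.

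Levels are given as scaled reads per kb, which is 1000 times the density in the deposited table. The WT CHX libraries held 2681764 and 4689435 reads assigned to features, and the WT DMSO libraries 2395126 and 1311202. The median ORF had 25 and 35 reads in WT CHX and 9 and 6 reads in WT DMSO, so weakly read genes start from few reads. Log values of the replicates correlated across features with r = 0.954 in WT CHX and r = 0.935 in WT DMSO, and features are not independent replicates. The MATa genes that were checked were read in all 4 libraries, the weakest being ASG7, at 42.2 and 29.3 in WT CHX and 4.45 and 13.2 in WT DMSO. MFA2, an a-factor precursor, stood at 23713 and 20781 in WT CHX and 6745 and 6729 in WT DMSO. Of the genes of the other mating type, MF(ALPHA)1 was read 4 times in WT CHX and 0 times in WT DMSO. STE3 stood at 15.8 and 11.9 in WT CHX and 0.938 and 0 in WT DMSO. SAG1 stood at 11.7 and 13.4 in WT CHX and 6.56 and 3.33 in WT DMSO. MF(ALPHA)2 stood at 13.3 and 9.08 in WT CHX and 2.58 and 9.17 in WT DMSO. These 2 genes of the other mating type were thus low but not absent, near ASG7 in WT DMSO. HIS3 was read in all 4 libraries (249 and 183 in WT CHX, 37.8 and 37.6 in WT DMSO), although the strain carries his3Δ1. Which part of the gene that allele removes was not analysed here.

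Most ORFs rose after CHX on the scale as deposited. Of 6562 ORFs with systematic names starting in Y, 5974 passed the filter on low values. The median ORF stood 1.26 higher on the log2 scale, or 2.39-fold, and 68.1% of the tested ORFs rose (4067 of 5974, limma adjusted p below 0.05), against 0.0335% that fell (2 of 5974). Over all 10392 features, 69.8% rose and 0.106% fell. The library factors behind the deposited scale are not stated, so every gene is also described on an ORF-median scale, in which each library is set to the same median ORF. On that scale 8.05% of the tested ORFs were higher (481) and 7.2% were lower (430). Over all features these shares were 13.6% and 5.55%. Counts called in the gene lists below are to be read beside the shares of all tested ORFs. Of the 430 lower ORFs, 126 rose on the deposited scale, 302 were not called there and 2 fell. Lower on the ORF-median scale therefore means lower relative to the median ORF, and for most of these ORFs no change was called on the deposited scale. Log2 changes on either scale carry an added 2 scaled reads per kb, which pulls the change of a single weakly read gene toward 0. The median of a weakly read class can even so lie above that of its better read members, as for CUTs and tRNAs below.

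**Figure D1:**
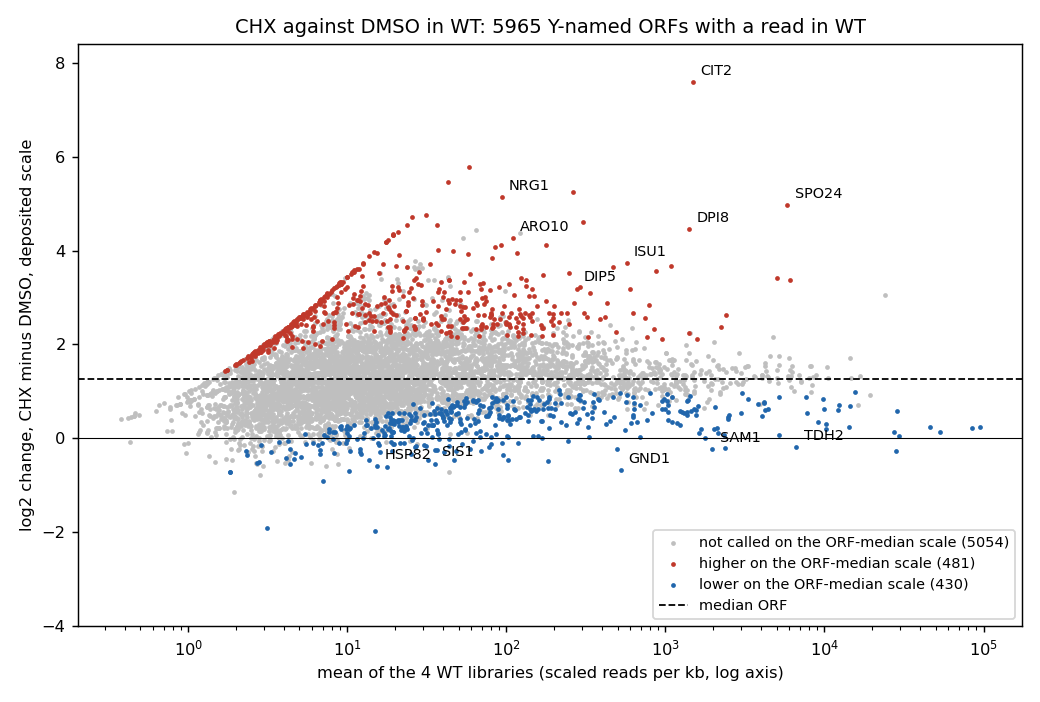
Log2 change of CHX minus DMSO on the deposited scale (y axis) against the mean level of the 4 WT libraries in scaled reads per kb (x axis, log), for the 5965 tested ORFs with a read in WT; colours give the limma call on the ORF-median scale and the dashed line is the median ORF. Nearly all points lie above 0, the 481 ORFs called higher lie along the upper edge and the 430 called lower lie mostly between 0 and the dashed line.

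Median relative changes were higher in weakly read and short ORFs than in strongly read and long ones, but by level the deposited scale ran the other way. With the ORFs cut into 5 equal parts by mean level over all 8 libraries, the median relative change was 0.21 in the lowest part and -0.18 in the highest. On the deposited scale these medians were 0.93 and 1.36. The share called lower was 1.34% in the lowest part and 15.8% in the highest. By RefSeq span, the shortest part had a median of 0.12 with 12.4% higher and 5.14% lower. The longest part had a median of -0.26 with 2.26% higher and 9.24% lower. The 447 tested ORFs without an entry in the RefSeq gene table, many of them dubious reading frames, had a median of 1.00, with 92 higher and 9 lower. Level and length thus moved with the relative calls, and their part in the gene groups below was not tested.

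The relative calls rested on few libraries. Without WT CHX replicate 1 the ORFs called on the ORF-median scale numbered 86 higher and 27 lower, and without WT CHX replicate 2 they numbered 112 and 77. Without WT DMSO replicate 1 or 2 they numbered 851 and 404 higher, 451 and 326 lower. A set of 83 ORFs, 64 higher and 19 lower, was called with each of the 4 WT libraries left out in turn. A gene is said below to have held when it belongs to these 83, a criterion chosen after the values were seen. Many of the higher ones had no read in WT DMSO, so leaving out a WT DMSO library removed none of their reads. Some rested on very few reads, such as YER090C-A with 2 in WT CHX and 0 in WT DMSO. To have held is therefore no proof of a well-measured change, and the reads are to be read beside it. On the deposited scale 2399 of the 4067 rises held in this way.

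Upstream sequences are shown for chosen genes of the 4 groups the results turn on, all of them with a motif match. They come from the RefSeq assembly of R64, are printed 5′ to 3′ on the strand of the gene, and cover matches within 500 to 81 bases before the annotated gene start with up to 20 bases on either side. Capitals mark the motif matches, which were searched on both strands and may overlap each other. Chaperone genes are represented by the heat shock element of Hsf1, searched as TTC, GAA and TTC with 2 bases between neighbours, at chrXIV:619867-619929 (minus strand), chrII:444832-444884 (minus strand) and chrXV:380791-380869 (plus strand).
SIS1: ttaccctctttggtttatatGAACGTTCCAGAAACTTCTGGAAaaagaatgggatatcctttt
FES1: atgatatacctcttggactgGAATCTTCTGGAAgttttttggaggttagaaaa
STI1: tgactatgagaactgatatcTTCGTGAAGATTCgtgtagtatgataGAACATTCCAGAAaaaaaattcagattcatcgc

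Proteasome genes are represented by the proteasome-associated control element of Rpn4, searched as GGTGGCAAA, at chrV:177673-177721 (plus strand), chrIV:190766-190814 (plus strand) and chrVII:999221-999264 (minus strand).
PRE1: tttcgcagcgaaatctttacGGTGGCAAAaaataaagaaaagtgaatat
RPN5: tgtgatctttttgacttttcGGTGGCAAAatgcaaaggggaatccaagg
PUP2: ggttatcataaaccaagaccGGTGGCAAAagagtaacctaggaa

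The aromatic amino acid genes are represented by the triplet bound by Aro80, searched as 3 CCG units with 7 bases between neighbours, at chrIV:1233856-1233928 and chrVIII:375524-375596 (both plus strand). CIT2 is shown with the core of the R box bound by Rtg1 and Rtg3, searched as GTCAC, at chrIII:122500-122693 (minus strand).
ARO10: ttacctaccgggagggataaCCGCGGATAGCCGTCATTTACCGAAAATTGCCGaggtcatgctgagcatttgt
ARO9: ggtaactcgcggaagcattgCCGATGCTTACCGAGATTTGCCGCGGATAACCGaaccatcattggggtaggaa
CIT2: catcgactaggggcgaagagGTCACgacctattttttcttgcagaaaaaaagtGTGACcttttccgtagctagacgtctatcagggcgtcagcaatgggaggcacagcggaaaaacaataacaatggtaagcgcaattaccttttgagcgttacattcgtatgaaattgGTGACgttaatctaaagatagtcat

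CIT2 had the largest rise of any tested ORF. It encodes the peroxisomal citrate synthase and is the classic target of the retrograde response, by which mitochondrial state controls nuclear genes through Rtg1 and Rtg3. CIT2 (YCR005C, chrIII:120946-122328) stood at 3401 and 2558 in WT CHX and 8.43 and 20.4 in WT DMSO, on 10392 reads against 33, and the groups lay far apart. Set to a common ORF median, its values were 2270 and 2172 in WT CHX and 20.4 and 41.1 in WT DMSO, a relative log2 change of 6.16 ± 0.413 (SE, limma adjusted p = 0.00199) that held. The GTCAC core occurs in 38.1% of the 5517 upstream windows, so the 3 matches shown for CIT2 are a description only. DLD3, a lactate dehydrogenase and also a retrograde target, stood at 732 and 773 in WT CHX and 85.5 and 118 in WT DMSO, and its relative change was 1.34 ± 0.207 (adjusted p = 0.00919, ended without WT CHX replicate 2). The other 11 tested genes of the retrograde list were not called on the ORF-median scale, and the list of 13 had a median of -0.01. CIT1, the mitochondrial citrate synthase, stood at 39.9 and 29.2 in WT CHX and 12.6 and 18.6 in WT DMSO, a relative change of -0.37 ± 0.211 (adjusted p = 0.245). CIT2 and DLD3 thus stood apart from the rest of their list.

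NRG1, the short ORF YER053C-A and SPO24 also rose far past the median ORF. NRG1 (YDR043C, chrIV:542674-543369), a zinc-finger repressor of glucose-repressed genes, stood at 199 and 170 in WT CHX and 2.99 and 3.55 in WT DMSO. Its relative change was 3.93 ± 0.227 (limma adjusted p = 0.00138) and held, on 395 reads (WT CHX) against 5 (WT DMSO). SPO24 (YPR036W-A, chrXVI:645950-646153), a short gene linked to sporulation, stood at 12242 and 10435 in WT CHX and 353 and 371 in WT DMSO, with a relative change of 3.41 ± 0.147 (adjusted p = 0.00062) that held. The SPO24 values of the groups were far apart. SPO24 was read far more than the meiotic genes proper. IME2, the meiotic kinase, stood at 10.2 and 9.13 in WT CHX and 0.947 and 0.562 in WT DMSO, a relative change of 1.34 ± 0.316 (adjusted p = 0.0296) that ended without WT CHX replicate 1, WT CHX replicate 2 or WT DMSO replicate 2. Of 30 listed meiosis and sporulation genes, 16 passed the filter, and 3 of these were higher and 0 lower, with a median of 0.80. Quantile normalization turned this median to -0.29, against -0.20 for all ORFs.

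ICY1, DPI8, MRS3, NCE103 and PRM5 also rose well past the median ORF, and all 5 were named after their values were seen. ICY1 (YMR195W, chrXIII:654034-654417) stood at 714 and 461 in WT CHX and 18.7 and 24.9 in WT DMSO, a relative change of 3.13 ± 0.169 (limma adjusted p = 0.00138). DPI8 (YJL133C-A, chrX:159623-159847) stood at 2664 and 2733 in WT CHX and 128 and 114 in WT DMSO, a relative change of 2.92 ± 0.207 (adjusted p = 0.00199). MRS3, a mitochondrial iron carrier whose gene lies next to DPI8 on the other strand, stood at 273 and 185 in WT CHX and 20.2 and 18.6 in WT DMSO, a relative change of 1.93 ± 0.192 (adjusted p = 0.0037). NCE103, the carbonic anhydrase, stood at 1713 and 1517 in WT CHX and 129 and 138 in WT DMSO, a relative change of 2.03 ± 0.155 (adjusted p = 0.00199). PRM5, a membrane protein gene induced by pheromone and cell wall stress, stood at 109 and 109 in WT CHX and 6.44 and 4.3 in WT DMSO, a relative change of 2.62 ± 0.328 (adjusted p = 0.00634). The calls of these 5 genes held, but the genes were picked on their values, so this is a description and no further support.

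ARO10 and ARO9, of aromatic amino acid breakdown, rose further than the median ORF. The Ehrlich pathway turns amino acids into fusel alcohols by transamination and decarboxylation. ARO10 (YDR380W, chrIV:1234218-1236125), its broad decarboxylase, stood at 257 and 164 in WT CHX and 7.47 and 10.2 in WT DMSO, a relative change of 2.88 ± 0.226 (limma adjusted p = 0.00199) that held. ARO9 (YHR137W, chrVIII:375709-377250), the aromatic transaminase, stood at 978 and 766 in WT CHX and 87.2 and 50.9 in WT DMSO, a relative change of 2.13 ± 0.309 (adjusted p = 0.00798) that ended without either WT CHX library. Of the 10 tested Ehrlich genes, 4 were higher (ARO10, ARO9, PDC6 and ESBP6) and 0 lower, with a median of 0.30, and 4 members lay below 0. The higher members numbered 2 and 1 without WT CHX replicate 1 or 2. ARO8, the constitutive transaminase, stood at 815 and 666 in WT CHX and 310 and 307 in WT DMSO, a relative change of -0.30 ± 0.181 (adjusted p = 0.274). The Aro80 triplet occurs in 9 of the 5517 windows (0.163%). Of these 9 ORFs, 4 were called higher (ARO10, ARO9, SPL2 and YMR103C) and 5 were not called. YMR103C was read 4 times in WT CHX and 0 times in WT DMSO. SPL2 lies beside ARO9 on the opposite strand, and the stretch between them is shared.

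Some nitrogen catabolite genes rose further than the median ORF, and none of those tested was called lower. Yeast represses many nitrogen catabolite genes while rich nitrogen sources last. PUT1 (YLR142W, chrXII:425186-426616), proline oxidase, stood at 36.6 and 25.5 in WT CHX and 0.602 and 1.07 in WT DMSO. These are 107 reads against 2, a ratio of 38.1 on the deposited scale, with an exact 95% interval of 10.3 to 319 for counting error only. The relative change of 2.72 ± 0.283 (limma adjusted p = 0.00431) held. DAL7, a malate synthase of allantoin use and also a classic target of nonsense-mediated decay, stood at 49.3 and 41.2 in WT CHX and 5.94 and 1.76 in WT DMSO, a relative change of 1.91 ± 0.47 (adjusted p = 0.0332) that ended without either WT CHX library. Of 24 tested nitrogen catabolite genes, 5 were higher (PUT1, UGA3, DAL7, DUR3 and UGA1) and 0 lower, with a median of 0.53, and 1 was higher without either WT CHX library. GAP1, the general permease, stood at 12.7 and 14.6 in WT CHX and 8.91 and 7.51 in WT DMSO, a relative change of -0.71 ± 0.397 (adjusted p = 0.239).

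The phosphate regulon list had a median of 0.38. Of its 20 tested genes, 5 were higher (25%, against 8.05% of all tested ORFs) and 3 lower (15%, against 7.2%). Without WT CHX replicate 1 or 2 these were 2 and 1 higher and 0 lower. The higher genes were SPL2, PHO89, GIT1, PHO5 and PHO12, all downstream of phosphate starvation signalling. SPL2 (YHR136C, chrVIII:374654-375100), a regulator of the low-affinity phosphate carriers, stood at 2302 and 1750 in WT CHX and 156 and 152 in WT DMSO, a relative change of 2.14 ± 0.166 (limma adjusted p = 0.00199) that held. PHO89, a sodium phosphate carrier, stood at 229 and 175 in WT CHX and 24.1 and 20.6 in WT DMSO, a relative change of 1.57 ± 0.256 (adjusted p = 0.0108) that ended without either WT CHX library. The lower genes were PHO86, VTC3 and VTC4, and the last 2 belong to the vacuolar polyphosphate polymerase. PHO84, the high-affinity carrier, moved with the median ORF, at 4979 and 4093 in WT CHX and 1360 and 1207 in WT DMSO (relative change 0.26 ± 0.206, adjusted p = 0.396).

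DIP5, ISU1 and TPO4 rose further than the median ORF, while the permease and iron lists they come from held calls in both directions. DIP5 (YPL265W, chrXVI:41043-42869), the glutamate and aspartate permease, stood at 535 and 467 in WT CHX and 59 and 47.3 in WT DMSO, a relative change of 1.67 ± 0.215 (limma adjusted p = 0.00663) that held. Of 23 tested amino acid and peptide permeases, 2 were higher (DIP5 and BAP2) and 3 lower, including the methionine permeases MUP1 and MUP3. These permease shares were 8.7% and 13%, against 8.05% and 7.2% of all tested ORFs. Without either WT CHX library 1 was higher and 0 lower. ISU1 (YPL135W, chrXVI:297553-298050), the scaffold of iron-sulfur cluster assembly, stood at 1282 and 847 in WT CHX and 83 and 70.4 in WT DMSO, a relative change of 2.20 ± 0.232 (adjusted p = 0.0045) that held. The 28 tested iron regulon genes had a median of 0.13. Of them, 3 were higher and 3 lower (10.7% each), near the 8.05% and 7.2% of all tested ORFs. The iron regulon calls became 1 and 2 higher and 0 lower without WT CHX replicate 1 or 2. TPO4, a polyamine exporter, stood at 199 and 153 in WT CHX and 14.3 and 4.36 in WT DMSO, a relative change of 2.74 ± 0.505 (adjusted p = 0.0148) that ended without either WT CHX library. Of 11 tested polyamine genes, 2 were higher and 0 lower, with a median of 0.12.

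Among histone genes 4 of 11 tested were higher (HTA1, HHT2, HHT1 and HTB2) and 0 lower, with a median of 0.53. All tested ORFs were higher in 8.05% of cases. The higher histone genes numbered 0 and 1 without WT CHX replicate 1 or 2. HTA1 stood at 5121 and 3125 in WT CHX and 602 and 704 in WT DMSO, a relative change of 1.06 ± 0.205 (limma adjusted p = 0.0171) that ended without either WT CHX library. Each core histone has a near-identical gene copy, so reads may be split between copies. HTZ1, the H2A.Z variant, stood at 222 and 143 in WT CHX and 55.8 and 62 in WT DMSO, a relative change of 0.04 ± 0.218 (adjusted p = 0.91).

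RNAs known to be removed by nonsense-mediated decay, which needs translation to find an early stop codon, were higher in 7 of 21 tested cases and lower in 0, with a median of 0.60. All tested ORFs were higher in 8.05% of cases. The higher calls of this list numbered 2 without either WT CHX library. Its median was 0.32 with the ORF median subtracted from log2 values and 0.25 with quantile normalization. The medians of all ORFs under these settings were -0.08 and -0.20. RPL22B (YFL034C-A, chrVI:64243-64932), whose unspliced RNA is such a substrate, stood at 707 and 505 in WT CHX and 54.9 and 83.5 in WT DMSO, a relative change of 1.57 ± 0.171 (limma adjusted p = 0.00461) that held. RPS9A, a ribosomal protein gene that is not on the list of decay targets, stood at 660 and 390 in WT CHX and 51.3 and 53.2 in WT DMSO, a relative change of 1.71 ± 0.22 (adjusted p = 0.00663) that held. Besides RPL22B, the list members called higher were MDJ2, DAL7, NBL1, COX19, EST3 and EST2. CPA1, whose upstream reading frame makes it a substrate, stood at 147 and 156 in WT CHX and 49.9 and 49.8 in WT DMSO, a relative change of 0.04 ± 0.24 (adjusted p = 0.912). YRA1, an mRNA export factor that controls its own intron, stood at 145 and 87.3 in WT CHX and 54.7 and 69 in WT DMSO, a relative change of -0.67 ± 0.211 (adjusted p = 0.0659). Of the 137 cytosolic ribosomal protein genes, 133 rose on the deposited scale, and on the ORF-median scale 3 were higher and 15 lower with a median of -0.21. Quantile normalization turned these to 18 higher, 1 lower and a median of 0.25, against -0.20 for all ORFs. No direction is therefore given for them relative to the median ORF.

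Among called ORFs with at least 30 reads in WT, 9 of the 15 with the largest relative rises had no read in WT DMSO. These 9 met the rule of 30 reads through WT CHX alone, the group in which they are high. Their place among the largest rises and their bounds are thus a description and no further support. For YDR003W-A, 30 reads in WT CHX against none in WT DMSO make it at least 7.13-fold higher, taking a floor of 3 reads over the group. The bounds and ratios of reads given here are on the deposited scale, where the median ORF itself rose 2.39-fold. For YHR214C-E, with 60 reads in WT CHX, the bound is at least 14.3-fold higher. AAD4, a putative aryl-alcohol dehydrogenase of a near-identical family, was read 64 times in WT CHX, which makes it at least 15.2-fold higher. YAR070C, YGL024W, YIL165C, YPL238C, YOR013W and YCR101C were read 30 to 35 times in WT CHX, with bounds of at least 7.13-fold to 8.32-fold higher. YER053C-A was better read, at 593 and 426 in WT CHX and 13 and 9.88 in WT DMSO, with a relative change of 3.81 ± 0.428 (limma adjusted p = 0.00486) that held. YHR022C had 164 reads against 3, a ratio of 39 with an exact 95% interval of 13.1 to 191, and its relative call ended without either WT CHX library. NIT1, a nitrilase gene next to YIL165C, was read 87 times in WT CHX and 3 times in WT DMSO, a ratio of 20.7 with an exact 95% interval of 6.84 to 102, and its relative call held.

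**Figure D2:**
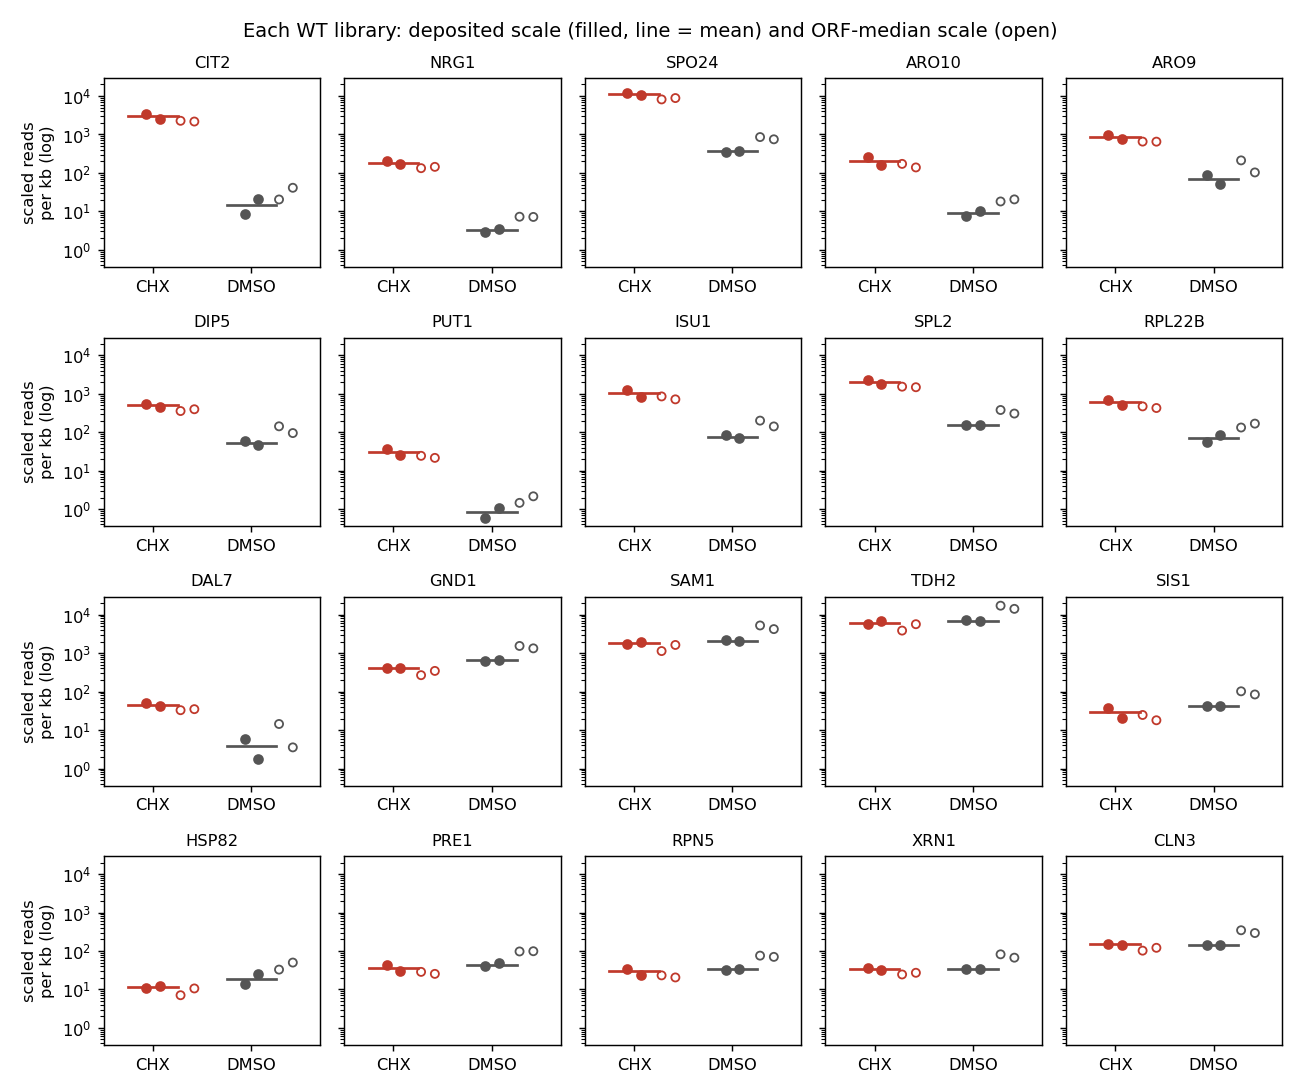
Scaled reads per kb (log axis) of 20 genes in the WT CHX and WT DMSO libraries; filled points give each library on the deposited scale with a line at their mean, and open points the same libraries set to a common ORF median. From CIT2 to DAL7 the CHX points lie above the DMSO points on both scales, while from SAM1 to CLN3 the filled points of the groups lie close together and the open CHX points lie below the open DMSO points.

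GND1 was the ORF with a RefSeq entry that fell on the deposited scale. It encodes the main 6-phosphogluconate dehydrogenase, which makes NADPH in the pentose phosphate pathway. GND1 (YHR183W, chrVIII:470960-472429) stood at 401 and 408 in WT CHX and 636 and 662 in WT DMSO. It fell by 0.68 ± 0.164 on the deposited log2 scale (limma adjusted p = 0.00827), and its relative change was -2.23 ± 0.246 (adjusted p = 0.00465). Both calls held. The other ORF that fell, YNL017C, was read 0 times in WT CHX and 3 times in WT DMSO, and its call ended without WT CHX replicate 1 or WT DMSO replicate 2. Of 11 tested pentose phosphate genes, 1 was higher (SOL4) and 2 lower (GND1 and RPE1), and all but GND1 rose on the deposited scale. GND1 thus went against its own pathway list. GND1 was also the lowest of the called ORFs with at least 30 reads in WT. Of the 15 lowest of these, 6 were retrotransposon ORFs and 3 kept their call without WT CHX replicate 1, against 12 without WT CHX replicate 2 and 13 without WT DMSO replicate 1 or 2. SAM1 (YLR180W, chrXII:515262-516410), a methionine adenosyltransferase, stood at 1703 and 1928 in WT CHX and 2167 and 2095 in WT DMSO, a relative change of -1.79 ± 0.218 (adjusted p = 0.00591) that held.

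Many chaperone genes lagged behind the median ORF, and the list had the lowest median of the lists examined other than that of retrotransposons. The heat shock proteins and the chaperones of the endoplasmic reticulum fold new and damaged proteins, and many of them are driven by Hsf1. Of 27 tested, 0 were higher and 16 lower on the ORF-median scale, with a median of -1.04. On the deposited scale 9 rose, with a median of 0.26 against 1.26 for all ORFs. In 23 of the 27 both WT CHX values lay below both WT DMSO values after ORF-median scaling, against 29.5% of all tested ORFs. The lower calls numbered 3 without WT CHX replicate 1, 6 without WT CHX replicate 2, 15 without WT DMSO replicate 1 and 13 without WT DMSO replicate 2.

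SIS1 (YNL007C, chrXIV:618507-619565), the essential Hsp40 partner of Hsp70 and a tight Hsf1 target, had 37 and 21.2 in WT CHX and 41.9 and 41.8 in WT DMSO as deposited. On the ORF-median scale these were 24.7 and 18 in WT CHX and 102 and 84.4 in WT DMSO, a change of -2.03 ± 0.221 (limma adjusted p = 0.00461) that held. HSC82, the constitutive Hsp90, stood on that scale at 185 and 172 in WT CHX and 526 and 558 in WT DMSO, a change of -1.59 ± 0.153 (adjusted p = 0.00364) that held. HSP82, the inducible Hsp90 and close in sequence to HSC82, stood at 7.07 and 10.6 in WT CHX and 32.8 and 50 in WT DMSO, a change of -2.0 ± 0.287 (adjusted p = 0.00787) that ended without WT CHX replicate 1. KAR2, the Hsp70 of the endoplasmic reticulum, stood at 141 and 136 in WT CHX and 301 and 328 in WT DMSO, a change of -1.17 ± 0.154 (adjusted p = 0.00679) that held. FES1, a nucleotide exchange factor of Hsp70, was read 24 times in WT CHX and 29 times in WT DMSO, and its relative change of -1.85 ± 0.425 (adjusted p = 0.0279) ended without either WT CHX library. STI1, SSA1, SSA2, YDJ1, SSC1, CPR6, PDI1 and ERO1 were also lower. HSF1 itself stood at 11.7 and 10 in WT CHX and 2.58 and 3.45 in WT DMSO, a relative change of 0.24 ± 0.415 (adjusted p = 0.708). SSE1, the Hsp110 that assists Hsp70 and was named after its values were seen, had a relative change of -1.38 ± 0.185 (adjusted p = 0.0072) that held.

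The heat shock element shown for SIS1, FES1 and STI1 occurs in 81 of the 5517 windows (1.47%). Of those 81 ORFs, 17.3% were lower on the ORF-median scale, against 7.49% of the others, and their median change was -0.27, against -0.05. Within the chaperone list 10 of 27 windows hold the element, and 6 of these 10 were lower, as were 10 of the 17 without it.

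Proteasome genes lagged in 15 of 33 tested cases (45.5%), against 7.2% of all tested ORFs. The proteasome degrades ubiquitin-tagged proteins, and its genes are driven together by Rpn4. None of the 33 was higher and the median was -0.79. In 28 of them (84.8%) both WT CHX values lay below both WT DMSO values after ORF-median scaling, against 29.5% of all tested ORFs. PRE1 (YER012W, chrV:177835-178431), a subunit of the catalytic core, stood at 28.6 and 25.4 in WT CHX and 97.2 and 98.6 in WT DMSO on that scale, a change of -1.79 ± 0.218 (limma adjusted p = 0.00598) that held. RPN5 (YDL147W, chrIV:190924-192261), of the lid of the regulatory particle, stood at 23.2 and 20.5 in WT CHX and 75.7 and 70.3 in WT DMSO, a change of -1.65 ± 0.187 (adjusted p = 0.00487) that held. As deposited, RPN5 stood at 34.8 and 24.2 in WT CHX and 31.2 and 34.8 in WT DMSO, so the groups overlapped. PRE8 and PRE5, both core subunits, rose on the deposited scale and were not called on the ORF-median scale (0.26 ± 0.169, adjusted p = 0.3, and 0.34 ± 0.218, adjusted p = 0.299). The lower calls numbered 2 without WT CHX replicate 1, 3 without WT CHX replicate 2, 13 without WT DMSO replicate 1 and 9 without WT DMSO replicate 2.

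The control element shown for PRE1, RPN5 and PUP2 occurs in 88 windows (1.6%), 25 of them upstream of proteasome genes. Of the 88 ORFs, 27.3% were lower on the ORF-median scale (24) and 2.27% higher, with a median of -0.53. Of the ORFs without it, 7.31% were lower and 7.05% higher, with a median of -0.04. Among the 25 proteasome genes with the element 12 were lower, and among the 8 without it 3 were lower.

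**Figure D3:**
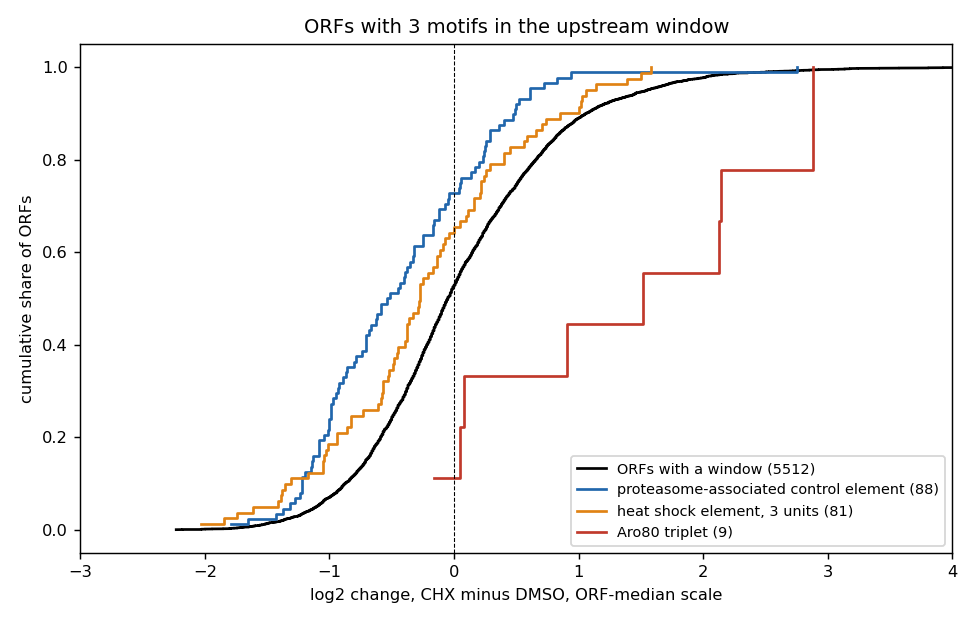
Cumulative share of ORFs (y axis) by log2 change of CHX minus DMSO on the ORF-median scale (x axis), for the 5512 ORFs with an upstream window and a read in WT. The other curves give the ORFs whose window holds the proteasome-associated control element (88), the heat shock element (81) or the Aro80 triplet (9). The curves of the first 2 motifs lie left of the curve of all ORFs through its middle, and that of the Aro80 triplet lies right of it.

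Glycolytic genes, among the most strongly read of the cell, were lower in 10 of 20 tested cases and higher in 2, with a median of -0.68. Quantile normalization, under which the median of all ORFs was -0.20, turned the list's median to 0.10 and left 4 members higher and 2 lower. The list's lower calls numbered 2 without WT CHX replicate 1. TDH2 (YJR009C, chrX:453683-454681), a glyceraldehyde-phosphate dehydrogenase, stood at 5800 and 6684 in WT CHX and 7084 and 7050 in WT DMSO, a relative change of -1.74 ± 0.211 (limma adjusted p = 0.00591) that held. ENO1 (YGR254W, chrVII:1000927-1002240), an enolase, stood at 2142 and 2295 in WT CHX and 2685 and 2408 in WT DMSO, a relative change of -1.75 ± 0.212 (adjusted p = 0.00591) that held. TDH3 and ENO2, close in sequence to these, were lower as well, so reads may be split between copies. ADH2, the alcohol dehydrogenase of ethanol use, was higher: it stood at 77.4 and 71.1 in WT CHX and 5.84 and 7.79 in WT DMSO, a relative change of 1.77 ± 0.207 (adjusted p = 0.00551) that held. PYK2, a glucose-repressed pyruvate kinase, was the other higher member (0.89 ± 0.241, adjusted p = 0.043, ended without either WT CHX library or WT DMSO replicate 2). Among 18 tested glucose repressors and hexose transporters, NRG1 was higher and 5 were lower, including HXT4, which stood at 62.9 and 46.7 in WT CHX and 70.2 and 57.1 in WT DMSO (relative change -1.73 ± 0.258, adjusted p = 0.00833, ended without either WT CHX library). HXT genes are near-identical in places, so this value is uncertain.

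Some translation factors and tRNA synthetases lagged. Of 40 tested translation factors, 0 were higher and 13 lower, with a median of -0.61, and 0 were lower without either WT CHX library. Of 20 tested cytosolic tRNA synthetases, 0 were higher and 9 lower, with a median of -0.49, and 1 was lower without either WT CHX library. GRS1, the glycyl-tRNA synthetase, stood at 136 and 89 in WT CHX and 63.1 and 101 in WT DMSO, a relative change of -1.07 ± 0.196 (limma adjusted p = 0.0145) that ended without either WT CHX library. FUN12, the initiation factor eIF5B, stood at 23 and 23 in WT CHX and 15.4 and 25.9 in WT DMSO, a relative change of -1.26 ± 0.283 (adjusted p = 0.0266) that ended without either WT CHX library or WT DMSO replicate 2. No call in these 2 lists held. YDR341C, an arginyl-tRNA synthetase gene that is not on the list, had a relative change of -1.15 ± 0.171 (limma adjusted p = 0.00829) that held. Of 78 tested ribosome biogenesis genes 1 was higher (EMG1) and 6 lower (7.69%), close to the 7.2% of all tested ORFs, with a median of -0.39. The lower ones numbered 1 and 0 without WT CHX replicate 1 or 2. NOP7 stood at 28.2 and 13.7 in WT CHX and 19.5 and 23.9 in WT DMSO, a relative change of -1.56 ± 0.266 (adjusted p = 0.0119) that ended without WT CHX replicate 2. Of 45 tested amino acid synthesis genes under Gcn4, 3 were higher and 8 lower, with a median of -0.10. Quantile normalization turned this median to 0.08, against -0.20 for all ORFs.

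CLN3 and XRN1 lagged within lists that held few calls. CLN3, the G1 cyclin whose mRNA is translated poorly in poor medium, stood at 153 and 143 in WT CHX and 143 and 145 in WT DMSO as deposited. Its relative change was -1.50 ± 0.197 (limma adjusted p = 0.00679) and ended without WT CHX replicate 1. Of 25 tested G1/S genes CLN3 alone was called, and the list median was -0.57. XRN1, the exonuclease that degrades decapped RNA, stood at 36.7 and 31.9 in WT CHX and 33.7 and 33.2 in WT DMSO, a relative change of -1.46 ± 0.202 (adjusted p = 0.0077) that ended without WT CHX replicate 1. Of 36 tested decapping, decay and deadenylation genes, 0 were higher and 3 lower, with a median of -0.16. NAM7, the gene of Upf1, stood at 83.5 and 44.8 in WT CHX and 14.8 and 15.2 in WT DMSO and followed the median ORF (relative change 0.45 ± 0.312, adjusted p = 0.335).

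Lower ORFs that held and belong to no list were BFR1, MDH2, VMA8, BRE5, SRL1, PSA1, OPT1, SSE1, SUB2 and YDR341C. OPT1 is a peptide transporter gene and YDR341C a tRNA synthetase gene, and neither is on the list of its kind. MDH2, the cytosolic malate dehydrogenase, stood at 125 and 103 in WT CHX and 117 and 126 in WT DMSO, a relative change of -1.63 ± 0.189 (limma adjusted p = 0.00534). SUB2, an RNA helicase of mRNA export, stood at 292 and 232 in WT CHX and 185 and 244 in WT DMSO, a relative change of -1.25 ± 0.153 (adjusted p = 0.00601). For both, the deposited values of the groups overlapped.

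Retrotransposon reading frames were the list with the lowest median. Of 90 gag and gag-pol ORFs of Ty elements 44 passed the filter, and 0 were higher and 20 lower on the ORF-median scale, with a median of -1.30. On the deposited scale 0 rose and 0 fell (limma, adjusted), with a median of -0.02. YMR046C, a gag ORF, stood at 139 and 167 in WT CHX and 205 and 225 in WT DMSO, a relative change of -2.03 ± 0.292 (adjusted p = 0.00783) that ended without WT CHX replicate 1. Ty copies are near-identical and each gag ORF lies within a gag-pol ORF, so these ORFs share reads and do not count as independent. The list's lower calls numbered 0 without WT CHX replicate 1 and 11 without WT CHX replicate 2.

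**Figure D4:**
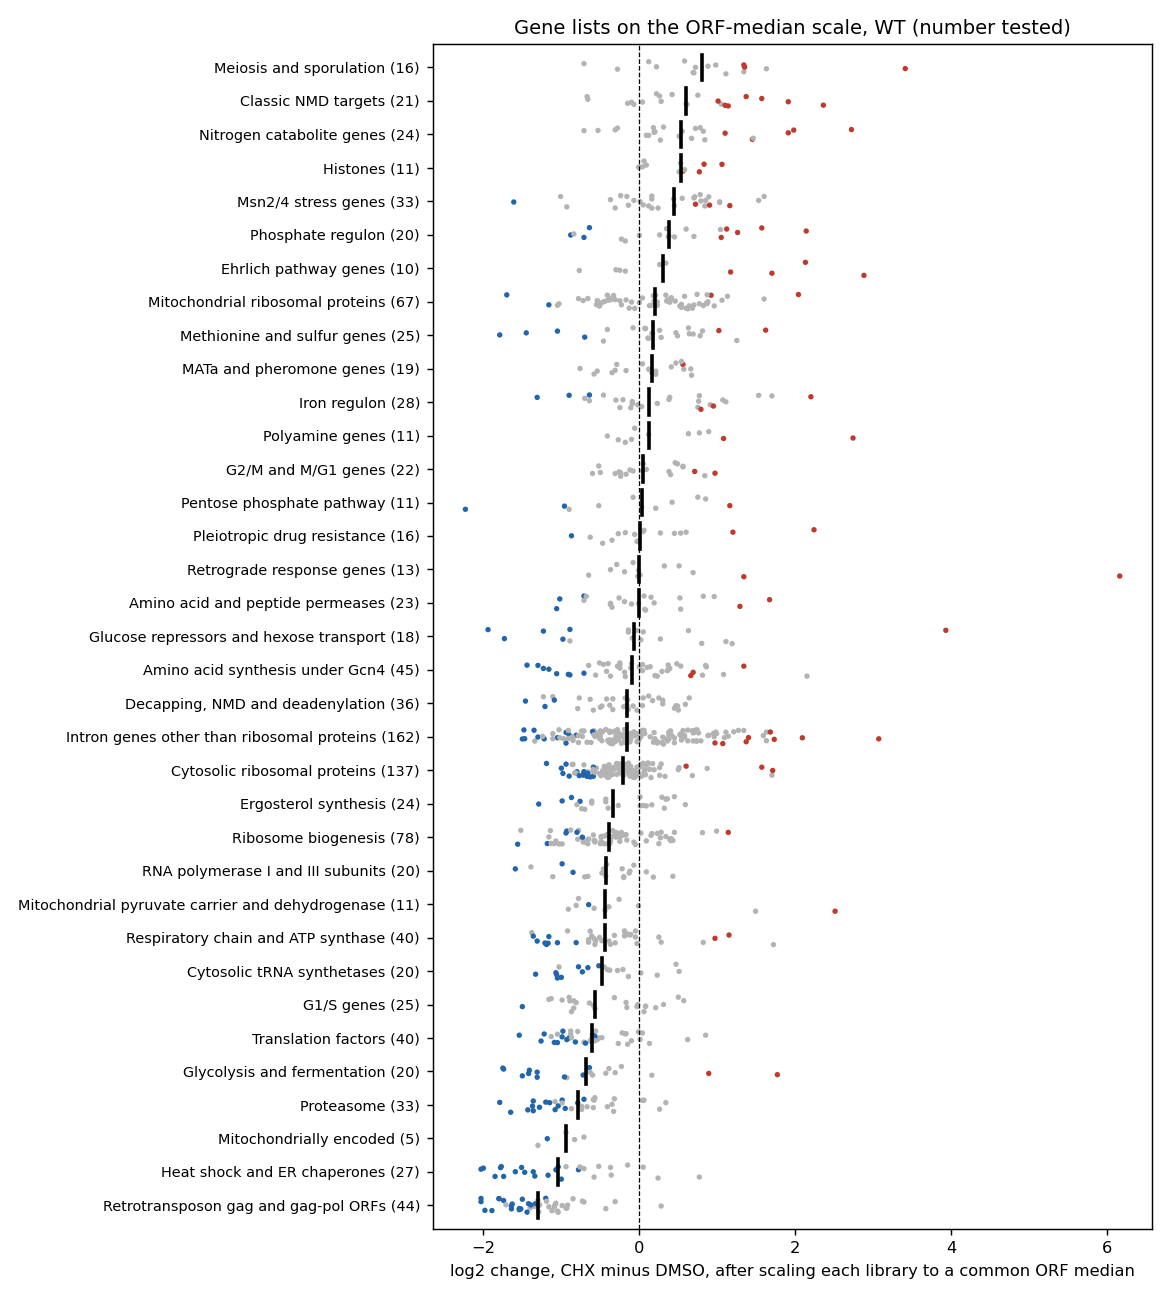
Log2 change of CHX minus DMSO on the ORF-median scale (x axis) for every tested member of 35 gene lists, sorted by list median (black bar); red points were called higher and blue points lower by limma. Chaperones, proteasome and glycolysis lie left of 0 near the bottom, meiosis, decay targets and nitrogen genes lie right of 0 at the top, and CIT2 and NRG1 lie far right of the rest of their lists.

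XUTs, SUTs and CUTs, 3 classes of unstable or unannotated non-coding transcripts, took a larger share of reads after CHX. XUTs are unstable transcripts degraded by Xrn1, SUTs stable unannotated transcripts, CUTs cryptic transcripts degraded by the nuclear exosome, and NUTs transcripts that extend when Nrd1 termination fails. Many XUTs and SUTs run antisense to genes and are exported and decapped. XUTs held 9.23 and 8.86 reads per 1000 ORF reads in WT CHX and 3.41 and 3.08 in WT DMSO, 2.79-fold more. SUTs held 6.16 and 5.69 in WT CHX and 2.24 and 1.92 in WT DMSO, 2.85-fold more. CUTs held 3.7 and 3.57 in WT CHX and 2.35 and 1.98 in WT DMSO, 1.68-fold more. The shares of the groups did not overlap in any of these classes, and they need no pseudocount and no library factor.

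By feature, 342 of 1373 tested XUTs (24.9%) were higher on the ORF-median scale and 13 lower, with a median of 1.05. For SUTs 159 of 705 (22.6%) were higher and 3 lower, and for CUTs 154 of 756 (20.4%) were higher and 16 lower, both with a median of 0.89. All features together were higher in 13.6% of cases. These calls rested on few reads, since 179 and 143 of the 1628 listed XUTs had no read in the WT CHX libraries and 697 and 941 had none in the WT DMSO libraries. The filter took the mean over all 8 libraries, so a feature could pass it without a read in WT DMSO. Such a feature could be called higher but not lower, so the counts in the 2 directions cannot be weighed against each other. Without WT CHX replicate 1 the higher calls numbered 40 XUTs, 21 SUTs and 29 CUTs, and without WT CHX replicate 2 they numbered 68, 32 and 46. With each WT library left out in turn, 32 XUTs, 13 SUTs and 25 CUTs stayed higher. The class medians were smaller when the ORF median was subtracted after the pseudocount (0.46 for XUTs, 0.41 for SUTs and 0.44 for CUTs, against -0.08 for ORFs). With quantile normalization they were 0.24, 0.18 and 0.23, against -0.20 for ORFs. By limma-voom they were 0.61, 0.59 and 0.27, against -0.13 for ORFs. Among features with at least 30 WT reads they were 1.00, 0.89 and 0.53, against -0.10 for ORFs. XUT0958 was read 50 times in WT CHX and not at all in WT DMSO, which makes it at least 11.9-fold higher on the deposited scale. XUT0649 went the other way, at 78 and 69.9 in WT CHX and 71.1 and 76.7 in WT DMSO, a relative change of -1.52 ± 0.188 (limma adjusted p = 0.00608) that held. Overlap between the catalogues, through which a read could be counted in several classes, was not tested.

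NUTs showed opposite pictures by feature and by reads. Of 1243 tested, 249 were higher and 35 lower on the ORF-median scale, with a median of 0.74. Quantile normalization moved this median to 0.01, against -0.20 for all ORFs. Without WT CHX replicate 1 or 2 the higher NUTs numbered 24 and 42 and the lower ones 9 and 23. Their reads per 1000 ORF reads were 76.3 and 87.9 in WT CHX and 141 and 142 in WT DMSO, a ratio of 0.58. snoRNAs, which guide modification of ribosomal RNA, held 98.2 and 120 reads per 1000 ORF reads in WT CHX and 235 and 246 in WT DMSO. Of 76 snoRNAs 52 were lower on the ORF-median scale and 2 higher, and their median was -1.49 there and 0.02 on the deposited scale. The lower calls numbered 10 without WT CHX replicate 1 and 32 without WT CHX replicate 2, and 9 held. snR13 stood at 6559 and 6941 in WT CHX and 11091 and 10249 in WT DMSO. It fell by 0.66 ± 0.119 on the deposited scale (limma adjusted p = 0.00277), a call that held. All 6 snRNA features were lower on the ORF-median scale, with a median of -1.71 there and -0.16 on the deposited scale. None of the 6 was called without WT CHX replicate 1, and quantile normalization gave a median of -0.22, against -0.20 for all ORFs.

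tRNAs, mitochondrial and plasmid RNAs behaved each in their own way. Of 235 tested tRNAs 26 were higher and 12 lower on the ORF-median scale with a median of 0.40, but the median of the 38 with at least 30 WT reads was -0.52 and that by limma-voom over all tested was -0.84, so no direction is given. Mitochondrial ORFs were lower in 6 of 11 tested cases, with a median of -1.22, and the 5 listed mitochondrially encoded subunits had a median of -0.94 on the ORF-median scale. COX1, a subunit of cytochrome oxidase, had 4.22 and 3.28 in WT CHX and 3.19 and 5.04 in WT DMSO, which overlap, and its lower call on the ORF-median scale ended without either WT CHX library or WT DMSO replicate 2. The 4 ORFs of the 2-micron plasmid rose on the deposited scale, and 2 were higher on the ORF-median scale.

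**Figure D5:**
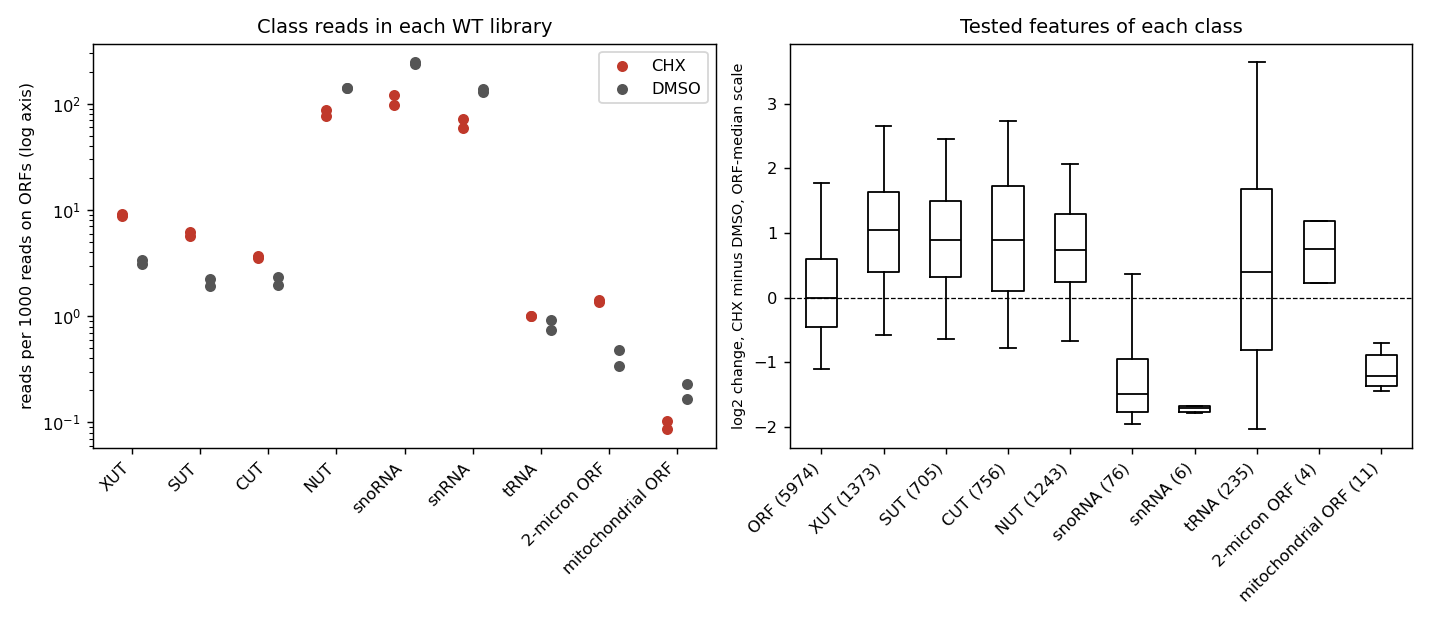
Left, reads per 1000 ORF reads (log axis) of each class in each WT library, CHX in red and DMSO in grey; right, log2 change on the ORF-median scale of the tested features of each class, with boxes from the 25th to the 75th percentile, a line at the median and whiskers to the 5th and 95th percentiles. XUTs, SUTs, CUTs and 2-micron ORFs lie higher with CHX on the left, and snoRNAs, snRNAs and NUTs lower, while the NUT box on the right lies above 0.

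Whether the changes on CHX in WT differ from those in upf1 cells was tested for the 211 named features in the same fit. By limma 0 of them differed after adjustment over all features (lowest adjusted p = 0.0553) and 37 did at an unadjusted p below 0.05. By limma-voom these numbers were 0 and 39.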

How the data were processed

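The authors deposited 1 table of normalized read densities (a signal, per feature and library) for 11844 features, with 8 library columns and 4 group mean columns that were not used. Per the submitters' processing notes, the genome build was R64 and the tools included featureCounts 2.0.0, HISAT2 2.2.0, DESeq2 and Trim Galore, with no role given for any of them. The normalization is not stated in the sources used here. Whole reads were recovered from the steps between values: 99.95% of positive values came out whole within 0.001 reads. Values were multiplied to scaled reads per kb. An ORF-median scale set every library to the same median ORF.

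Features with a mean of at least 2 over the 8 libraries were kept and rRNA left out. Log2 values with 2 added were fitted with limma 3.58.1 (R 4.3.3) with a variance trend, all 8 libraries in 1 fit, and p-values were adjusted by Benjamini-Hochberg over 10392 features at 0.05. The procedure was tested on simulated data. A count of 0 was set to a floor of 3 reads over the group, and exact 95% intervals cover counting error only. These bounds and intervals are on the deposited scale. rRNA took 0.263% to 0.371% of the reads of the WT libraries.

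Named features were, among those with at least 30 WT reads, the 15 highest and 15 lowest called ORFs, ORFs that fell as deposited, the 2 highest and 2 lowest members of each list, and the 3 highest and lowest called features of each non-coding class. Others were chosen after their values were seen. The comparison, the lists and this rule were chosen with earlier results of these data known. The ribosomal protein, intron and retrotransposon lists were added after the table had been read. Alternatives changed the pseudocount, filter, scaling, trend, model, samples and replicate block.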

Additional observations from a re-analysis of the deposited data

How the results depend on the processing

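On the deposited scale 7257 features rose. This number was 4790 with a mean of at least 10 and 4732 to 6544 with 1 library left out. For ORFs it was 4067, and 2552 to 3752 with 1 library left out. Falls numbered 11 over all features, 18 with the replicate block and 9 to 25 with 1 library left out. For ORFs they numbered 2, with 1 at a mean of at least 10 and 2 to 5 with 1 library left out.

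On the ORF-median scale 1416 features were higher and 577 lower. The higher calls numbered 861 with a mean of at least 10, 766 in the WT libraries alone, 772 by limma-voom on whole reads (with 766 lower), 684 with the median subtracted from log2 values, 628 with quantile normalization (with 551 lower) and 218 to 2377 with 1 library left out. The lower calls numbered 145 in the WT libraries alone, 365 with the median subtracted and 50 to 592 with 1 library left out. The 481 higher ORFs became 236, 319, 317 and 308 with the WT libraries alone, limma-voom, the subtracted median and quantile normalization, and 86 to 851 with 1 library left out. The 430 lower ORFs became 71 in the WT libraries alone, 243 with the subtracted median and 27 to 451 with 1 library left out. The cause of these shifts was not tested. Fewer samples enter the WT-only fit and those that leave 1 out.

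The replicate numbers did not pair the samples, since same-numbered deviations correlated at r = -0.044 as deposited and -0.043 on the ORF-median scale. With the replicate block 1270 features were higher and 498 lower there, 452 and 350 of them ORFs. Of the values of single features and lists, 6161 alternatives kept the direction and the side of the threshold, 417 lost the call, 79 gained one and 334 moved. The relative change of snR17a turned to 0.00 with quantile normalization. Depth limits the low ORFs, whose median in WT DMSO was 9 and 6 reads.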
